A study of Mus musculus with 42 samples.

Results

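Memory Th2 cells were compared with rested Th2 cells, the in vitro stage from which the transferred cells came. The comparison took the 6 samples whose titles name these groups, 3 memory Th2 and 3 rested Th2, with arrays a and b of each numbered sample averaged first. They make up 12 of the 42 arrays and 6 of the 21 samples of the series, and all 4992 reporters (spotted cDNAs) entered the test. The series followed mouse CD4+ T cells from the naive state through Th1 or Th2 effector and rested stages to memory.

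The memory Th2 cells began as naive splenic CD4+ T cells of mice carrying the AND T cell receptor transgene and a green fluorescent protein transgene. The receptor sees a pigeon cytochrome C peptide on I-Ek. These cells were stimulated for 4 days with antigen-presenting cells under Th2 conditions and kept for 3 more days without them. They were then given to mice that had been thymectomised, lethally irradiated and reconstituted with T cell-depleted bone marrow, and were flow-sorted 4 to 12 weeks later. The rested Th2 cells had the same origin, stimulation and rest but no transfer, and the labels give their CD44 as high, CD62L and CD45RB as low and CD25 as absent. Both groups thus carried both transgenes. The labels do not say whether these rested samples were themselves the transferred cells. Nor do they say whether samples of a group came from separate mice or cultures, so p-values measure a spread between samples, pooled over all 7 groups of the series. The source field names the thymus where the protocol names the spleen, and RM-Th2 stands in the description of each memory sample titled M-Th2. The title decided the group.

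Th2 cells are helper T cells that make interleukins 4, 5 and 13 and direct responses to parasites and allergens. An activated T cell divides, builds effector proteins and mostly dies, while a minority returns to rest and lasts as memory. Resting lymphocytes are kept quiet by active programmes that include Krüppel-like factors, inhibitors of NF-κB and glucocorticoid-induced genes.

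Values are levels on the scale log2(normalised intensity + 1), and a difference is memory Th2 minus rested Th2 on that scale with its standard error (SE) from limma, n = 3 samples per group. The median reporter stood at 3.13. The scale understates changes of dim genes, and a fold is the antilog of the difference. Across reporters, the memory Th2 samples correlated with each other at r = 0.902 to 0.910 and the rested Th2 samples at 0.944 to 0.971, while a memory and a rested sample correlated at 0.880 to 0.939. The median SD of a reporter was 0.44 in memory Th2 and 0.29 in rested Th2 cells. The array medians of raw intensity ran from 7.60 to 9.23.

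One feature of the files bears on every result. The spot-by-spot ratio of array a to array b was the same, at r = 0.997 or more, in samples of different groups that share a number, so that arrays a and b are not independent readings. All 3 memory Th2 samples shared such a pattern with the memory Th1 sample of their number, and memory Th2 1 and 3 also with naive 1 and 3. Each rested Th2 sample shared its pattern with the rested Th1 sample of its number. No pattern was common to memory and rested cells, so stage and pattern cannot be told apart in memory Th2 against rested Th2. Memory cells were also flow-sorted from host mice while rested cells came from culture, so stage and source cannot be told apart either. A memory Th2 sample correlated at 0.954 to 0.980 with samples of other groups that had its pattern, more than with other memory Th2 samples.

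In memory Th2 against rested Th2 cells, 195 of 4992 reporters passed at an adjusted p under 0.05 (3.91%), with 114 rises (2.28%) and 81 falls (1.62%). At unadjusted p under 0.05 there were 953, where 250 would arise by chance. With the replicate number as a block, 719 reporters passed (14.4%), 360 up and 359 down. The labels do not say that equal numbers are pairs, and the block in a fit of the 2 groups alone gave 52. Groups did not overlap for 1113 reporters (22.3%). Of the 195 reporters, 145 named a single gene, 8 named several and 42 are unnamed here. Taking the brightest reporter for each gene, 135 of 3230 genes passed (4.18%), 73 up (2.26%) and 62 down (1.92%), and all 135 passed with the block too. With the block 485 genes passed (15%), 233 up (7.21%) and 252 down (7.8%), and the block counts of the gene lists below are to be read against these shares. Where no block count is given for a list, it was the same. Standard errors beside a p of the block fit are those of the fit without the block. The 20 largest rises and 20 largest falls are described below by role with other called genes, of which Neu1, Cat, Tmsb4x, Pfn1, Add1 and Tsg101 were chosen after their values were seen. Of these 40 genes, 32 kept their call in each of the 6 fits that left out 1 sample, and over all 135 called genes 52 did.

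**Figure D1:**
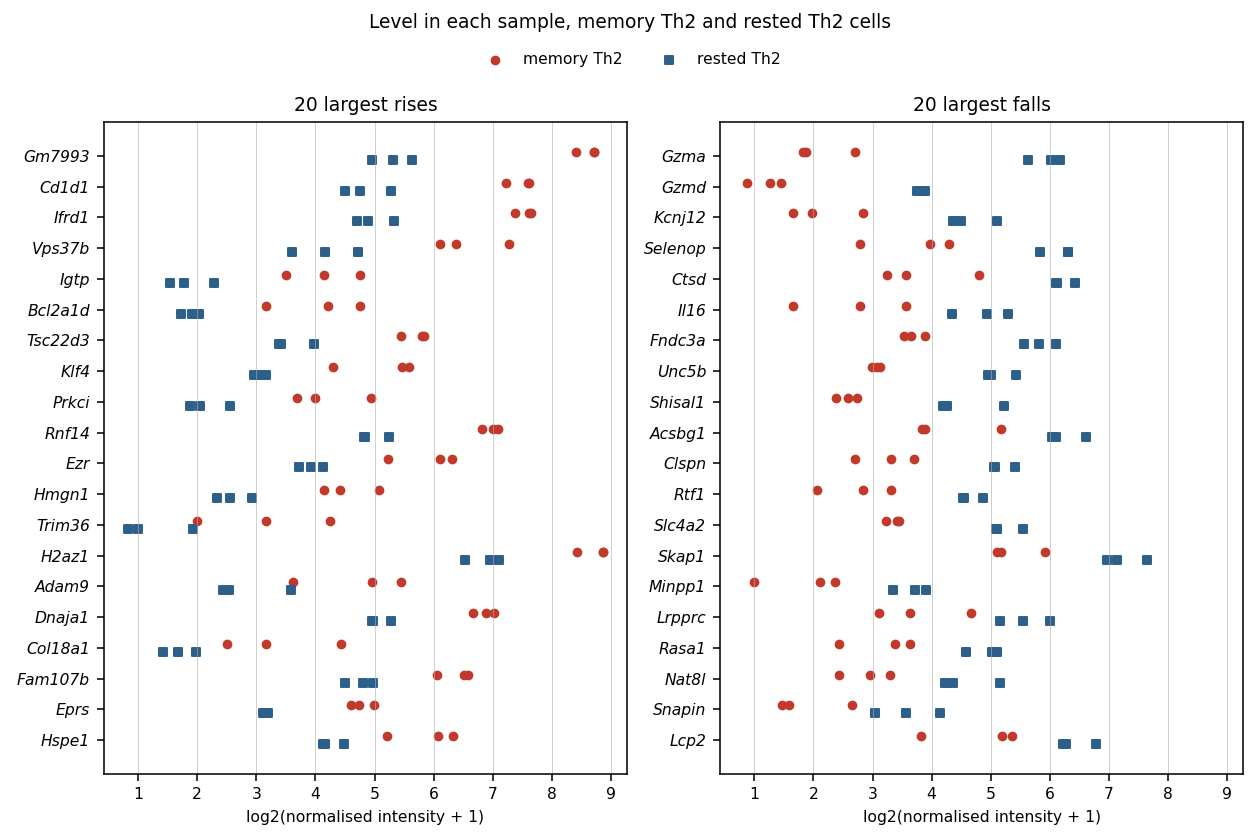
Level in each sample on the log2(normalised intensity + 1) scale for the 20 genes that rose most and the 20 that fell most, with memory Th2 samples as circles and rested Th2 samples as squares. The groups do not overlap for any of the 40 genes, since the rule that chose them required this, and Adam9 has the narrowest gap, with a lowest memory value of 3.62 and a highest rested value of 3.59.

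The cytotoxic granule genes held the largest fall. Granzyme A, encoded by Gzma (Entrez 14938), is a serine protease that killer lymphocytes deliver into target cells. It stood at 1.82, 2.70 and 1.87 in the memory Th2 samples and at 6.02, 5.63 and 6.17 in the rested Th2 samples. Every memory sample lay far under every rested sample, and the fall was 3.81 ± 0.26, or 14-fold lower in memory cells (adjusted p = 3.58e-08 by limma). Along the Th2 path Gzma averaged 6.52 in naive, 10.24 in effector, 5.94 in rested and 2.13 in memory cells, so that memory cells were the lowest of the 4 stages. Gzmd (Entrez 14941), a granzyme of the rodent granzyme B gene cluster, had 1.45, 1.27 and 0.88 in memory Th2 samples against 3.76, 3.82 and 3.88 in rested Th2 samples. It fell by 2.62 ± 0.21 (adjusted p = 2.37e-07), and a second Gzmd reporter fell by 1.21 ± 0.29 (adjusted p = 0.0197). The sequences of mouse granzymes C to G are alike enough for a cDNA probe to read several of them, so the identity of the Gzmd signal is uncertain. In memory cells both genes lay under the median reporter, and their folds rest partly on dim values.

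Of 8 measured genes of granzymes, perforin and their processing, 2 fell and none rose (25%), and the list's median difference was -0.55 where that of all genes was -0.00. The members that did not pass were Gzmc at -0.91 ± 0.35, Gzmb at -0.74 ± 0.46, the granzyme-activating protease gene Ctsc at -0.37 ± 0.40, Ctsw at -0.24 ± 0.62, the pore-forming protein gene Prf1 at -0.12 ± 0.22 and Gzmm at 0.20 ± 0.34. Gzmb and Prf1 were under the median reporter in both groups, which leaves little room for a fall to show. In bulk RNA, fewer cells with a transcript and less of it per cell cannot be told apart.

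Lysosomal genes moved both ways. Ctsd (Entrez 13033), the aspartic protease cathepsin D, read 3.24, 4.81 and 3.56 in memory Th2 samples and 6.12, 6.11 and 6.42 in rested Th2 samples. Memory sample 2 was the highest of its group yet still below all rested samples, and Ctsd fell by 2.34 ± 0.43 (adjusted p = 0.00283). Its stage means were 4.30 in naive, 5.18 in effector, 6.22 in rested and 3.87 in memory cells. Enzyme genes of the same organelle also fell, the β-galactosidase gene Glb1 by 1.40 ± 0.29 (adjusted p = 0.00851, or 0.0538 without rested Th2 3) and the legumain gene Lgmn by 1.12 ± 0.27 (adjusted p = 0.0197). The Lgmn call was lost without memory Th2 3 or any one rested sample (adjusted p up to 0.103), and a second Lgmn reporter gave -0.32 ± 0.30. Lamp1, a glycoprotein of the lysosomal membrane, rose by 1.49 ± 0.24 (adjusted p = 0.000912), with memory samples from 2.76 to 3.03 and rested samples from 1.35 to 1.50. All of these values lay under the median reporter. Of 22 measured lysosomal genes, 3 fell and 1 rose (18.2%), with a median of -0.19. The saposin precursor gene Psap (-0.78 ± 0.36) and the cathepsin gene Ctsb (0.36 ± 0.27) were among those that did not pass. With the block Psap passed as well (adjusted p = 0.0188), giving 4 falls and 1 rise. The sialidase gene Neu1, which was on no list, fell by 0.86 ± 0.23 (adjusted p = 0.0413), a call that was lost in each fit without 1 sample.

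Signalling genes of the T cell receptor fell where they passed. Skap1 (Entrez 78473) encodes an adaptor that couples the receptor to integrin adhesion. Its levels were 5.17, 5.11 and 5.92 in memory Th2 samples and 6.97, 7.14 and 7.64 in rested Th2 samples, a fall of 1.85 ± 0.32 (adjusted p = 0.00174). In both groups sample 3 was the highest, and the groups were well apart. Lcp2, which encodes the scaffold SLP-76, read 3.82, 5.19 and 5.36 in memory against 6.23, 6.28 and 6.79 in rested samples. It fell by 1.64 ± 0.41 (adjusted p = 0.0275), but the call was lost without memory Th2 1 or any one rested sample (up to 0.144). Dgka encodes diacylglycerol kinase alpha, which ends the diacylglycerol signal downstream of the receptor. With 7.21, 7.77 and 7.46 in memory against 8.55, 8.45 and 8.64 in rested samples, it fell by 1.06 ± 0.21 (adjusted p = 0.0054). Of 10 measured genes of receptor signalling, these 3 fell and none rose (30%), with a median of -0.46. The calcineurin target gene Nfatc3 (-0.63 ± 0.23), the kinase gene Fyn (-0.49 ± 0.28) and the zeta-chain gene Cd247 (0.17 ± 0.32) did not pass. With the block Nfatc3 passed (adjusted p = 0.0315), giving 4 falls. Rasa1, a GTPase-activating protein that switches Ras off, fell by 1.76 ± 0.30 (adjusted p = 0.00148). Minpp1, an inositol polyphosphate phosphatase, fell by 1.83 ± 0.37, with memory samples from 0.99 to 2.37.

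Skap1, Dgka, Lcp2 and Ctsd were each highest in rested cells among the 4 stages of the Th2 path. The same order held for 19 of the 20 largest falls, Gzma being the exception through its effector level. Since these genes were chosen as lower in memory than in rested cells, part of this order follows from the choice. Unc5b, a netrin receptor known from axon guidance and vessels, averaged 3.36 in naive, 2.79 in effector, 5.13 in rested and 3.06 in memory Th2 cells. It read 3.12, 3.08 and 2.99 in memory against 5.43, 4.96 and 5.01 in rested samples and fell by 2.07 ± 0.31 (adjusted p = 0.000456). Slc4a2, a chloride-bicarbonate exchanger of the plasma membrane, fell by 1.88 ± 0.24, and its memory mean of 3.36 lay close to its effector mean of 3.29. Fndc3a fell by 2.14 ± 0.29, Shisal1 by 1.98 ± 0.33 and the potassium channel gene Kcnj12 by 2.49 ± 0.46 (adjusted p = 0.0031). Selenop, which encodes the selenium carrier selenoprotein P, had 4.29, 2.79 and 3.98 in memory against 6.30, 5.83 and 6.30 in rested samples. It fell by 2.45 ± 0.39, and its second reporter by 2.37 ± 0.35.

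Other large falls had varied roles. The checkpoint adaptor gene Clspn fell by 1.94 ± 0.30, the transcription elongation factor gene Rtf1 by 1.91 ± 0.38 and the acyl-CoA synthetase gene Acsbg1 by 1.95 ± 0.39. Il16, a leukocyte chemoattractant precursor, fell by 2.19 ± 0.53 (adjusted p = 0.0207), with memory samples spread from 1.66 to 3.56 and rested samples from 4.35 to 5.29. The Il16 call was lost without memory Th2 1 or 3 or rested Th2 2 or 3 (up to 0.113). Lrpprc, which stabilises mitochondrial mRNAs, fell by 1.76 ± 0.40, but not without memory Th2 3 or rested Th2 1 or 2 (up to 0.0865). The N-acetylaspartate synthase gene Nat8l fell by 1.68 ± 0.44, and only without memory Th2 1 did its call hold (up to 0.158 in the others). Snapin, a partner of vesicle fusion proteins, fell by 1.68 ± 0.45 and kept its call in 2 of the 6 fits, those without memory Th2 2 or rested Th2 1 (up to 0.159 in the others). Catalase, encoded by Cat, fell by 1.44 ± 0.26 (adjusted p = 0.00219) and was not among the 20 largest.

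**Figure D2:**
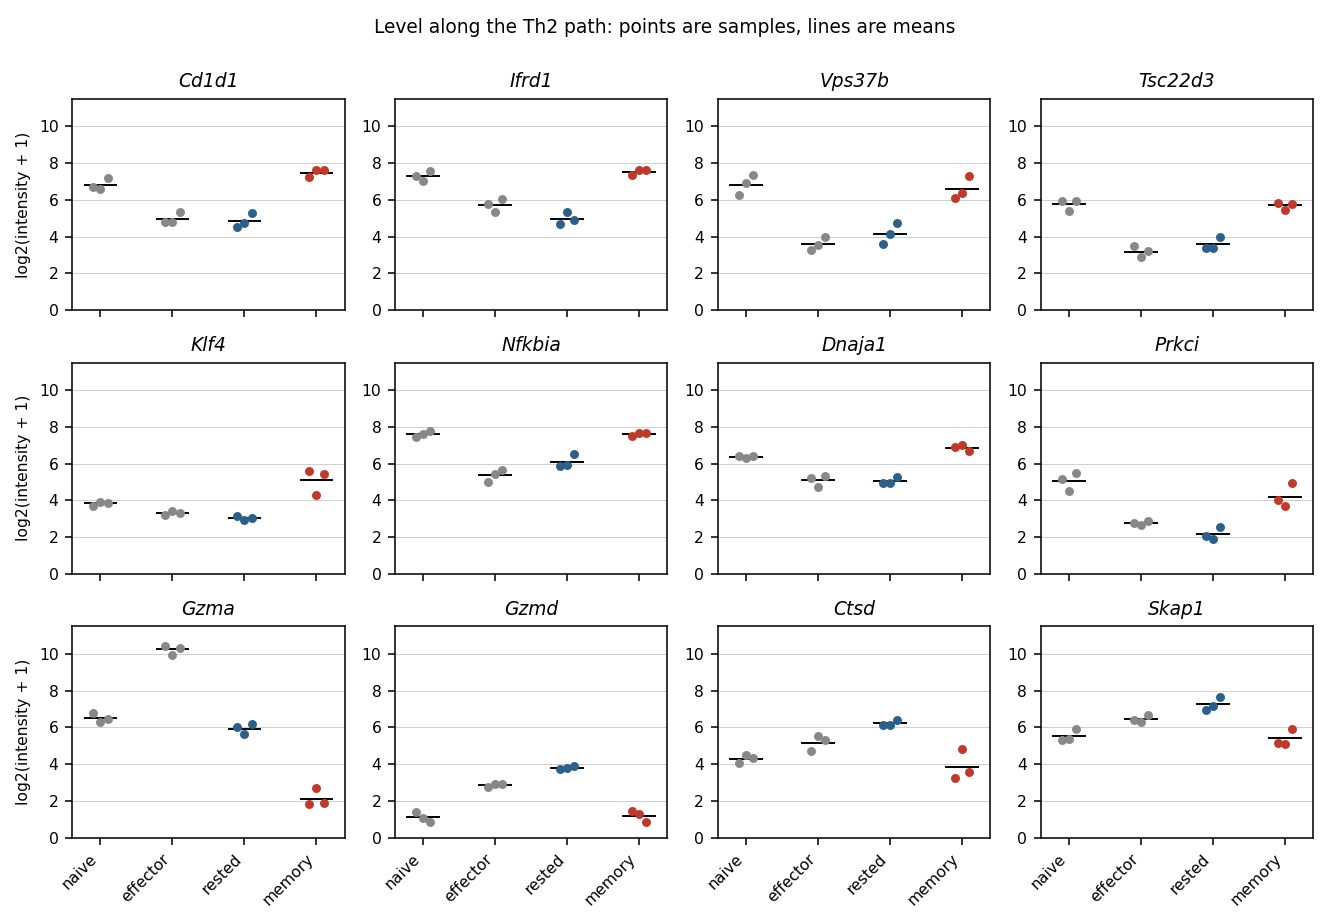
Level of 12 genes on the log2(normalised intensity + 1) scale in the 3 samples of each stage of the Th2 path, from naive to memory, with each group's mean as a line. Cd1d1, Ifrd1, Vps37b, Tsc22d3 and Nfkbia are lower in effector and rested cells than in naive and memory cells, while Gzmd, Ctsd and Skap1 are highest in rested cells.

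Some called genes on no list encode actin-binding proteins, and no count is drawn from them since all but Ezr were chosen after their values were seen. Tmsb4x, the thymosin that holds actin monomers, was at 9.36, 9.63 and 9.19 in memory Th2 samples and at 10.97, 11.08 and 10.83 in rested Th2 samples. It fell by 1.57 ± 0.22 (adjusted p = 0.000269), with groups that were far apart for their spread. Pfn1, the actin-binding protein profilin, fell by 1.63 ± 0.38 (adjusted p = 0.0175), but not without memory Th2 1 or rested Th2 2 or 3 (up to 0.0932). Ezr (Entrez 22350) encodes ezrin, which ties the membrane to cortical actin. It read 6.10, 5.23 and 6.31 in memory against 3.72, 3.92 and 4.12 in rested samples and rose by 1.96 ± 0.31, or 3.89-fold (adjusted p = 0.000712). The adducin gene Add1, whose protein caps actin filaments, rose by 1.33 ± 0.24 (adjusted p = 0.00234).

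Among the rises, 3 genes of naive and quiescent cells passed. Tsc22d3 (Entrez 14605), the glucocorticoid-induced leucine zipper, inhibits NF-κB and AP-1. Its levels were 5.84, 5.45 and 5.80 in memory Th2 samples and 3.41, 3.38 and 3.97 in rested Th2 samples. The memory samples lay close together and above every rested sample, a rise of 2.11 ± 0.28, or 4.32-fold (adjusted p = 0.000156). The stage means were 5.76 in naive, 3.19 in effector, 3.59 in rested and 5.70 in memory cells. Klf4 (Entrez 16600), a Krüppel-like factor that restrains lymphocyte division, had 5.59, 4.30 and 5.46 in memory against 3.17, 2.96 and 3.04 in rested samples. It rose by 2.06 ± 0.33 (adjusted p = 0.000753), and the memory mean of 5.12 was above the naive mean of 3.84. Klf6 rose by 1.27 ± 0.33 (adjusted p = 0.0363), a call kept only without memory Th2 2 (up to 0.155 in the other fits), and its dimmer second reporter gave 0.88 ± 0.36.

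Of 20 measured genes on the list of naive and quiescent cells, those 3 rose and none fell (15%), with a median of 0.54, and with the replicate block 7 rose and 2 fell. Foxo1, a transcription factor of lymphocyte homing and survival, stood at 5.96, 4.81 and 5.69 in memory and 4.34, 4.62 and 4.82 in rested samples, a difference of 0.89 ± 0.32 that did not pass (adjusted p = 0.125, or 0.0217 with the block). Its memory sample 2 lay within the rested range. The interleukin 7 receptor gene Il7r, whose product carries a survival signal for resting T cells, read 1.03, 4.88 and 1.92 in memory against 3.82, 5.26 and 3.91 in rested samples. Its difference of -1.72 ± 0.83 did not pass (adjusted p = 0.265, or 0.0238 with the block), and in memory cells sample 2 stood far above the other two. The naive-cell factor Satb1 (-0.19 ± 0.29) and the antiproliferative gene Btg1 (0.07 ± 0.32) did not pass.

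Of the early-response and activation list, 3 of 13 measured genes rose and none fell (23.1%), with a median of 0.54. Summed over the list, normalised intensity was 512.8, 491.9 and 588.3 in memory samples and 181.3, 194.0 and 212.4 in rested samples. Such a sum is weighted to bright members, here the called genes Nfkbia and Ifrd1 (7.48 and 7.37 in memory sample 1). It does not show a rise across the list, of which 10 genes did not pass. Ifrd1 (Entrez 15982), an interferon-related transcriptional regulator of immediate-early type, had 7.37, 7.61 and 7.64 in memory against 4.70, 5.33 and 4.89 in rested samples. The groups were more than 2 apart on the log2 scale, and the rise was 2.56 ± 0.33, or 5.91-fold (adjusted p = 0.000156). Fos, a subunit of AP-1, rose by 1.33 ± 0.32 (adjusted p = 0.0219), but not without memory Th2 1 or any one rested sample (up to 0.116). Its partner gene Jun differed by 1.23 ± 0.41 without passing (adjusted p = 0.1), but passed with the block (adjusted p = 0.0439), which gave 4 rises on the list. To 2 decimals, Jun in memory sample 2 (3.59) read the same as in rested sample 2. Further members of the list that did not pass included Tnfrsf9 at -0.59 ± 0.34, Egr1 at 0.13 ± 0.22 and Tnfrsf4 at 0.87 ± 0.55.

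Nfkbia (Entrez 18035) encodes the inhibitor IκBα, which holds NF-κB in the cytoplasm and is itself an NF-κB target. It stood at 7.48, 7.66 and 7.67 in memory Th2 samples and at 5.85, 5.94 and 6.52 in rested Th2 samples. Memory samples were tightly grouped above the highest rested sample, and the rise was 1.50 ± 0.23, or 2.83-fold (adjusted p = 0.00065), with 1.47 ± 0.33 at its second reporter. Its memory mean of 7.60 was near the naive mean of 7.62. Bcl2a1d (Entrez 12047), one of several near-identical mouse copies of the anti-apoptotic gene A1, rose by 2.15 ± 0.35 (adjusted p = 0.00102), with 4.76, 3.16 and 4.21 in memory against 1.73, 2.03 and 1.91 in rested samples. The probe may read the other copies as well. Birc3, an inhibitor of apoptosis, was at 1.02 ± 0.33 and did not pass (adjusted p = 0.0964, or 0.0214 with the block). Cycs, which encodes cytochrome c, an electron carrier that also triggers apoptosis, rose by 1.20 ± 0.24. Of 20 apoptosis genes, Bcl2a1d and Cycs rose and none fell (10%), with a median of 0.01, and with the block 3 rose and 1 fell.

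Interferon-linked and cytokine signalling genes gave 3 rises. Igtp (Entrez 16145) is an interferon-inducible GTPase of defence within cells. Its levels were 4.76, 3.51 and 4.14 in memory Th2 samples against 1.54, 1.78 and 2.29 in rested Th2 samples, which did not overlap. It rose by 2.27 ± 0.42, or 4.82-fold (adjusted p = 0.0031), and its rested values lay under the median reporter. Irf1, a transcription factor induced by interferon gamma, had 5.30, 5.52 and 5.31 in memory against 4.21, 4.48 and 4.66 in rested samples. It rose by 0.92 ± 0.23 (adjusted p = 0.027), a call lost in each of the 6 fits without 1 sample (up to 0.133). Of 10 interferon-induced genes, these 2 rose and none fell (20%), and the median was -0.02, with Ifitm3 at -0.17 ± 0.30, Irf9 at -0.16 ± 0.33 and B2m at 0.39 ± 0.21. With the block 2 rose and Ly6e fell (-0.69 ± 0.28, adjusted p = 0.01). Stat3, which transduces interleukin 6 and 10 signals, rose by 1.48 ± 0.37 (adjusted p = 0.0251), with 6.45, 7.16 and 7.15 in memory against 4.92, 5.34 and 6.06 in rested samples. That call was lost without memory Th2 2 or 3 or rested Th2 1 or 2 (up to 0.136), while the second, dimmer Stat3 reporter rose by 1.80 ± 0.23 (adjusted p = 0.000156). Stat3 was the only call among 15 measured cytokine receptor and JAK-STAT genes, and with the block Il6st (-0.86 ± 0.44, adjusted p = 0.0387) and Il7r fell too.

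Protein-folding genes supplied 2 of the 20 largest rises. Dnaja1 (Entrez 15502), a J-domain co-chaperone of Hsp70, read 6.88, 7.02 and 6.67 in memory Th2 samples and 4.95, 4.97 and 5.28 in rested Th2 samples. The gap between the groups was far wider than the spread within either, and it rose by 1.79 ± 0.25 (adjusted p = 0.00026), with 1.62 ± 0.27 at a second reporter. Hspe1 (Entrez 15528), the mitochondrial co-chaperonin Hsp10, had 6.33, 5.21 and 6.08 in memory against 4.49, 4.16 and 4.12 in rested samples and rose by 1.62 ± 0.30 (adjusted p = 0.00306). Of 27 chaperone genes, these 2 rose and none fell (7.41%), with a median of 0.25. With the block 6 rose and 1 fell. The Hsp70 gene Hspa8 was at 7.37, 9.16 and 8.14 in memory and 6.79, 6.71 and 7.45 in rested samples, where memory sample 1 lay within the rested range (1.24 ± 0.44, adjusted p = 0.118, or 0.0374 with the block). Hsp90aa1 differed by 1.67 ± 0.78 without passing (adjusted p = 0.248, or 0.0159 with the block).

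The promoters of 5 of these genes are given because each holds a short motif of a pathway named above, all credited to RefSeq on build GRCm38.p6, from 250 bases before to 50 bases after a listed start and 5′ to 3′ on the gene's strand. The motifs were chosen with these sequences in view and searched on both strands, and capitals mark the match. In Hspe1 and Dnaja1 the capitals are GAANNTTC, a core of the heat shock element, which 7.86% of the 32851 listed promoters hold. In Nfkbia they are GGANTTTCC on either strand, a core of the NF-κB site (1.25% of promoters). In Igtp and Irf1 they are TTCNNNGAA, the core of the gamma-activated site bound by STAT factors (8.3%). Dnaja1 has 3 listed starts and Irf1 has 2, with the motif at 1 start of each, which is the one shown. A match describes letters only and no binding was measured.
Hspe1 promoter, chr1:55087898-55088197, plus strand: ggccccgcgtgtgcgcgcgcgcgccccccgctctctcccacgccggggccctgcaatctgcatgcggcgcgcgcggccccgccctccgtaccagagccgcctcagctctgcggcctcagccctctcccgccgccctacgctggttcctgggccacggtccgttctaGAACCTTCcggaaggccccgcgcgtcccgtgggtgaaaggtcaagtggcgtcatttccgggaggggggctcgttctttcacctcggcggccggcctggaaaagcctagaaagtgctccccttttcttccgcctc
Dnaja1 promoter, chr4:40722218-40722517, plus strand: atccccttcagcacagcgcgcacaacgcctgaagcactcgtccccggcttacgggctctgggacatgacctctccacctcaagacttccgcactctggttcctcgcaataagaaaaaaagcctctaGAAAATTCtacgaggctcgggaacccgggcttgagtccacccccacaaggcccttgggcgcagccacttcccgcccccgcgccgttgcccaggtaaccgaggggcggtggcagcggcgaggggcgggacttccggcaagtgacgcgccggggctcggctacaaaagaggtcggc
Nfkbia promoter, chr12:55492598-55492897, minus strand: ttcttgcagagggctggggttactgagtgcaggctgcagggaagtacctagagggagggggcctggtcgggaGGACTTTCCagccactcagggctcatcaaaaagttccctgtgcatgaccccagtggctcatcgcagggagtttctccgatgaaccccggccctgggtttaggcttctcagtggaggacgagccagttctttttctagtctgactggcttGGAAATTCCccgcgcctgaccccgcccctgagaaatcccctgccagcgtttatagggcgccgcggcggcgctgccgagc
Igtp promoter, chr11:58199306-58199605, plus strand: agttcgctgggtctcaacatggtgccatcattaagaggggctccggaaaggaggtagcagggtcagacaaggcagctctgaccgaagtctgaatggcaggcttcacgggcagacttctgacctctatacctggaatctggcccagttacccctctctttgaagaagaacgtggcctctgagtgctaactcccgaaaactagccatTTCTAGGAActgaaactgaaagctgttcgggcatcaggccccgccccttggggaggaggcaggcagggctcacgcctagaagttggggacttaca
Irf1 promoter, chr11:53769764-53770063, plus strand: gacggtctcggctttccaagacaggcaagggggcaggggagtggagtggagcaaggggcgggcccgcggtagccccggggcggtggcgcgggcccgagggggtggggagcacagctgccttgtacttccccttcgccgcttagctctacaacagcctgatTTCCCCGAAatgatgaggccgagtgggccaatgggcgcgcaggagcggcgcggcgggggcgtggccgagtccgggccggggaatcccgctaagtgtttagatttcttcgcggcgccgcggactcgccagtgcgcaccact

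In Hspe1 the match begins 84 bases before the start, in Dnaja1 124, in Nfkbia 178 and 29, in Igtp 45 and in Irf1 90 bases before it.

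Chromatin genes included 2 of the 20 largest rises and a fall. H2az1 (Entrez 51788), which encodes the histone variant H2A.Z placed at promoters, had 8.87, 8.87 and 8.43 in memory Th2 samples against 7.10, 6.53 and 6.96 in rested Th2 samples. It rose by 1.86 ± 0.31 (adjusted p = 0.00118), and with naive and effector means of 8.37 and 8.46 rested cells were the lowest of the 4 stages. Hmgn1, a nucleosome-binding protein, rose by 1.94 ± 0.32 (adjusted p = 0.00118), with 4.42, 4.14 and 5.07 in memory against 2.33, 2.56 and 2.93 in rested samples. Nasp, a chaperone of histones, rose by 1.40 ± 0.27 (adjusted p = 0.00508). The deacetylase gene Hdac1 fell by 1.25 ± 0.35 (adjusted p = 0.0467), a call kept only without memory Th2 2 (up to 0.2 in the other fits). Of 40 chromatin regulators, 2 rose and 1 fell (7.5%), and the median was -0.09. With the block 3 rose and 3 fell.

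Further large rises had no list in common. Gm7993 (Entrez 666231), a predicted gene with no role given here, had the largest rise of all named genes. It read 8.41, 8.71 and 8.71 in memory against 4.95, 5.32 and 5.64 in rested samples, a difference of 3.31 ± 0.24, or 9.89-fold (adjusted p = 3.58e-08). Cd1d1 (Entrez 12479) encodes CD1d, which presents lipids to natural killer T cells. It stood at 7.23, 7.60 and 7.62 in memory against 4.50, 4.76 and 5.28 in rested samples and rose by 2.64 ± 0.31 (adjusted p = 8.46e-05). Cd1d1 was also on the thymocyte list, where the only other measured marker, Cd24a, differed by -0.00 ± 0.37. A close paralog, Cd1d2, may share its probe.

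Vps37b, a subunit of the ESCRT-I complex that sorts membrane proteins for degradation, had 6.10, 6.37 and 7.28 in memory against 3.60, 4.17 and 4.72 in rested samples. It rose by 2.42 ± 0.38 (adjusted p = 0.000712), with sample 3 highest in both groups. Another ESCRT-I subunit gene, Tsg101, fell by 1.31 ± 0.36 (adjusted p = 0.0463, and up to 0.209 without memory Th2 1 or any one rested sample). Rnf14, a ubiquitin ligase that binds the androgen receptor, rose by 2.00 ± 0.29, and the glutamyl-prolyl-tRNA synthetase gene Eprs by 1.62 ± 0.22. Fam107b rose by 1.63 ± 0.25. The atypical protein kinase C gene Prkci (Entrez 18759), a kinase of cell polarity, rose by 2.05 ± 0.33 (adjusted p = 0.000765), with 4.00, 3.68 and 4.94 in memory against 2.05, 1.88 and 2.55 in rested samples.

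In 3 of the 20 largest rises the call was lost in several of the 6 fits that left out 1 sample. The ubiquitin ligase gene Trim36 (1.88 ± 0.51, adjusted p = 0.0448) lost its call without memory Th2 1 or 3 or rested Th2 1 or 2 (up to 0.199). The metalloprotease gene Adam9 (1.82 ± 0.50, adjusted p = 0.0467) lost it without memory Th2 1 or 3 or rested Th2 2 or 3 (up to 0.19), and its second reporter read -0.24 ± 0.37. The collagen gene Col18a1 (1.67 ± 0.41, adjusted p = 0.0219) lost it without memory Th2 3 or rested Th2 2 or 3 (up to 0.136).

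All of the 20 largest rises had a rested mean below the naive mean, and in 14 of them the memory mean was above the naive mean. Memory cells were closer to naive than rested cells were in 14 of the rises and 15 of the falls. These genes were chosen for a large distance between memory and rested cells, so part of these counts follows from the choice. The same counts over all genes were not taken. Memory Th2 1 and 3 shared their spot patterns with naive samples, as given above, so nearness to naive cells and a shared pattern cannot be told apart. The source, host mice for memory and culture for rested cells, cannot be told apart from it either.

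**Figure D3:**
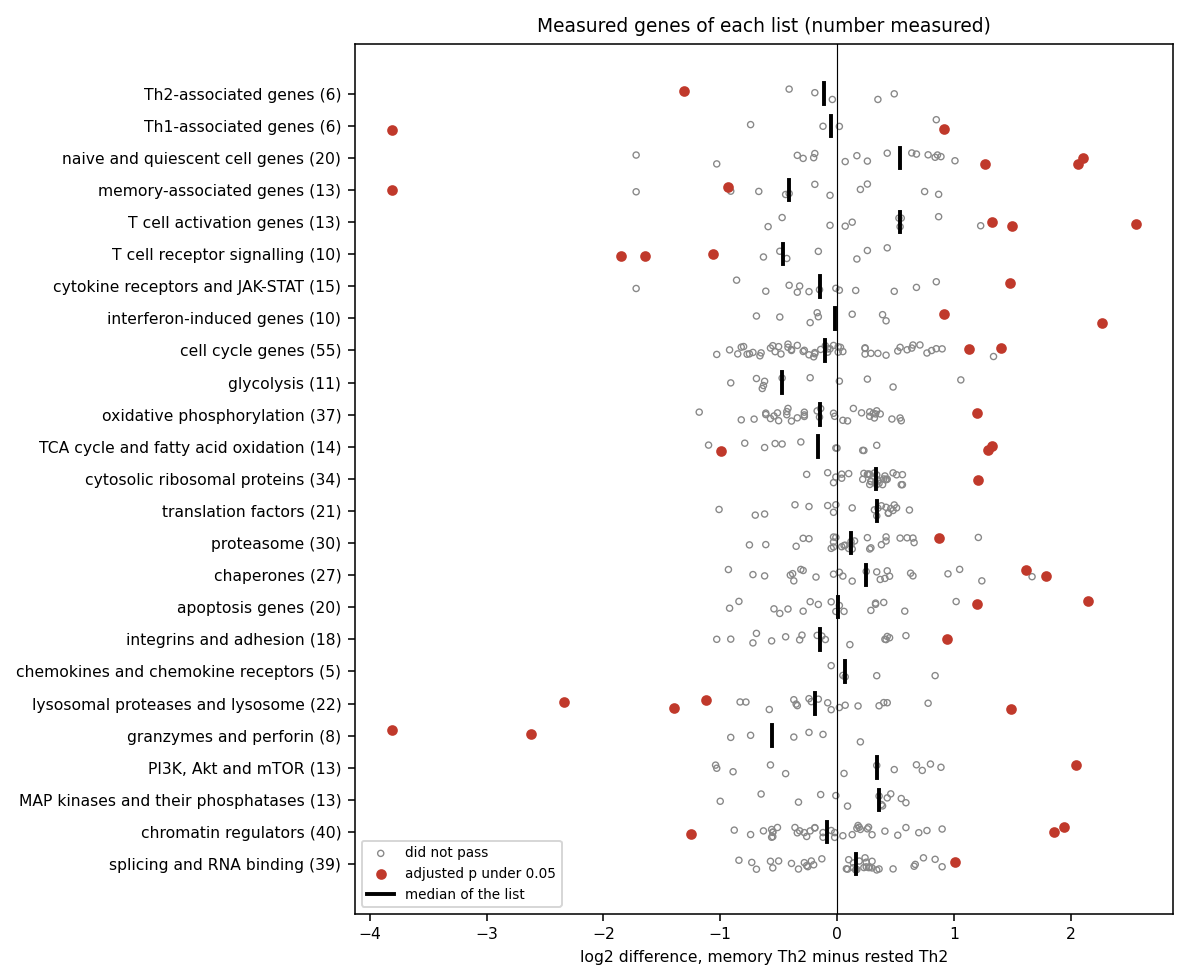
Difference between memory Th2 and rested Th2 cells (log2) for each measured gene of the lists with at least 5 measured genes, with filled points at an adjusted p under 0.05, open points otherwise, and a bar at each list's median. Most members of every list lie between -1 and 1, and in the fit without the block the lists of T cell receptor signalling and granzymes have called members on the low side only, as do the Th2-associated and memory-associated lists.

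Lists of metabolism, growth and division had few calls without the block and more with it. None of 11 glycolysis genes passed by limma, with a median of -0.47, and 3 fell with the replicate block, the aldolase gene Aldoa (-0.91 ± 0.35), the pyruvate kinase gene Pkm (-0.69 ± 0.24) and the hexokinase gene Hk1 (-0.64 ± 0.34). Of 37 oxidative phosphorylation genes, Cycs alone rose (2.7%) and the median was -0.15, and with the block 1 rose and 3 fell, among them the complex I subunit gene Ndufs1 (-1.18 ± 0.39, adjusted p = 0.00419). Of 14 genes of the citrate cycle and fatty acid oxidation, the malate dehydrogenase gene Mdh1 (1.29 ± 0.31, adjusted p = 0.0207) and Acads, a dehydrogenase of short-chain fatty acids (1.33 ± 0.23, adjusted p = 0.00148), rose and Idh3b fell by 0.99 ± 0.24 (21.4%). The Mdh1 call was kept only without memory Th2 1 (up to 0.0894 in the others), and the Idh3b call only without memory Th2 2 or rested Th2 2 (up to 0.0881). With the block 2 rose and 2 fell.

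Of 55 cell cycle genes, 2 rose and none fell (3.64%), near the share of all genes, and the median was -0.10. These were Nasp and Gmnn, the inhibitor of replication licensing, which rose by 1.13 ± 0.23 (adjusted p = 0.00739, or 0.0524 without rested Th2 1). With the block 5 cell cycle genes rose and 7 fell. The rises then included the sliding clamp gene Pcna (1.34 ± 0.49, adjusted p = 0.0327) and the replicative helicase gene Mcm2 (0.60 ± 0.27, adjusted p = 0.0304). The falls included the mitotic kinase gene Cdk1 (-0.80 ± 0.25, adjusted p = 0.0272) and Uhrf1, which maintains DNA methylation (-0.85 ± 0.24, adjusted p = 0.00355). None of 4 inhibitors of cyclin-dependent kinases passed. Of 34 ribosomal protein genes, 30 differences were above 0 and the median was 0.34, but only Rpl17 passed (1.21 ± 0.29, adjusted p = 0.0194), and not without memory Th2 1 or 3 or rested Th2 1 or 2 (up to 0.1). With the block 2 rose. The many pseudogenes of Rpl17 could share the probe. None of 21 translation factor genes passed, with a median of 0.34, and with the block 1 fell. Of 30 proteasome genes, the ATPase subunit gene Psmc5 rose (0.87 ± 0.23, adjusted p = 0.0362, kept only without memory Th2 2, up to 0.177 otherwise), and with the block 4 rose and none fell. Of 39 splicing genes, Snrpd1 rose (1.01 ± 0.26, adjusted p = 0.0282, kept only without memory Th2 2, up to 0.137 otherwise), and with the block 5 rose and 2 fell.

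None of 13 MAP kinase genes and none of 5 chemokine genes passed. With the block the kinase gene Mapk14 rose (0.59 ± 0.21, adjusted p = 0.0223) and Map2k2 fell (-1.0 ± 0.30, adjusted p = 0.0316). Of 13 genes of the PI3K and mTOR pathway, Prkci rose. With the block 3 rose and 3 fell, the falls being those of the kinase genes Akt1 (-1.04 ± 0.33, adjusted p = 0.022) and Akt2 (-0.89 ± 0.33, adjusted p = 0.0319) and of Tsc1, an inhibitor of mTOR (-1.03 ± 0.36, adjusted p = 0.0388). Of 18 adhesion genes the integrin gene Itga2 rose by 0.94 ± 0.23 (adjusted p = 0.0207, lost without memory Th2 3 or rested Th2 2 or 3, up to 0.124), and with the block 1 rose and 3 fell.

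Genes linked to memory or to the Th2 lineage were mostly unmeasured or dim. Of 46 listed memory-associated genes 13 were measured, of which Gzma and Lgals1 fell and none rose (15.4%), with a median of -0.41. With the block 1 rose and 5 fell. Galectin-1, encoded by Lgals1, read 6.93, 6.95 and 7.11 in memory against 8.04, 7.60 and 8.14 in rested samples and fell by 0.93 ± 0.21 (adjusted p = 0.0145, lost without memory Th2 1 or rested Th2 1 or 3, up to 0.0833). The annexin gene Anxa5 (-0.67 ± 0.48, adjusted p = 0.036 with the block), the gut-homing integrin gene Itgb7 (-0.91 ± 0.32, adjusted p = 0.0223 with the block) and Crip1 (-0.06 ± 0.39) did not pass. Of 25 listed Th2-associated genes 6 were measured and 1 fell (16.7%). That was Rnf128, a ubiquitin ligase linked to anergy, at 2.45, 2.11 and 2.31 in memory against 3.46, 3.44 and 3.92 in rested samples (-1.31 ± 0.35, adjusted p = 0.0412). The call was lost in each fit without 1 sample (up to 0.154), and effector Th2 cells averaged 6.66. Il13 (0.49 ± 0.41), Il9 (0.35 ± 0.32) and Il4ra (-0.41 ± 0.40) were under the median reporter and did not pass. Of 6 genes listed as Th1-associated, Gzma fell and Irf1 rose (33.3%). In these samples Gzma was not higher in Th1 effector cells, with an effector mean of 10.24 in Th2 and 6.54 in Th1 cells.

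Markers of other cells were checked because memory cells were sorted from host mice. Of the CD4 T cell genes only Cd247 was measured, at 1.91 in memory and 1.74 in rested cells, and no B cell marker was measured, so neither identity nor B cells can be read from these arrays. Of 10 myeloid markers 1 fell (Lgmn) and none rose, with summed intensities from 257.5 to 322.3 in memory and 260.8 to 423.8 in rested samples. The lysozyme gene Lyz2 was at 2.92 in memory and 3.57 in rested cells. None of 4 granulocyte markers (250.7 to 353.8 in memory, 257.9 to 369.4 in rested samples), 4 erythroid and platelet markers (10.5 to 14.2 against 14.7 to 15.7) or 10 stromal markers (133.4 to 166.7 against 146.9 to 160.1) passed. With the block the stromal collagen gene Col4a1 rose (0.83 ± 0.28, adjusted p = 0.0402). Perforin was the only measured marker of CD8 T and natural killer cells. No summed marker level was at 0. The part of other cells in the results was not tested.

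The Th1 arm offers the same step in the other lineage, with no shared samples but with the same spot patterns at each number. In memory against rested Th1 cells, 887 reporters passed (17.8%), with 470 rises (9.42%) and 417 falls (8.35%). Among genes, 10.2% rose and 8.61% fell there. Of the 20 largest Th2 rises 15 rose in the Th1 step, and of the 20 largest Th2 falls 15 fell, which is not independent of the patterns. Gm7993 rose by 3.13 ± 0.24 in Th1 cells, Ifrd1 by 2.51 ± 0.33, Tsc22d3 by 2.15 ± 0.28 and Ezr by 1.94 ± 0.31. Gzma fell by 4.88 ± 0.26 and Gzmd by 2.37 ± 0.21 in Th1 cells.

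**Figure D4:**
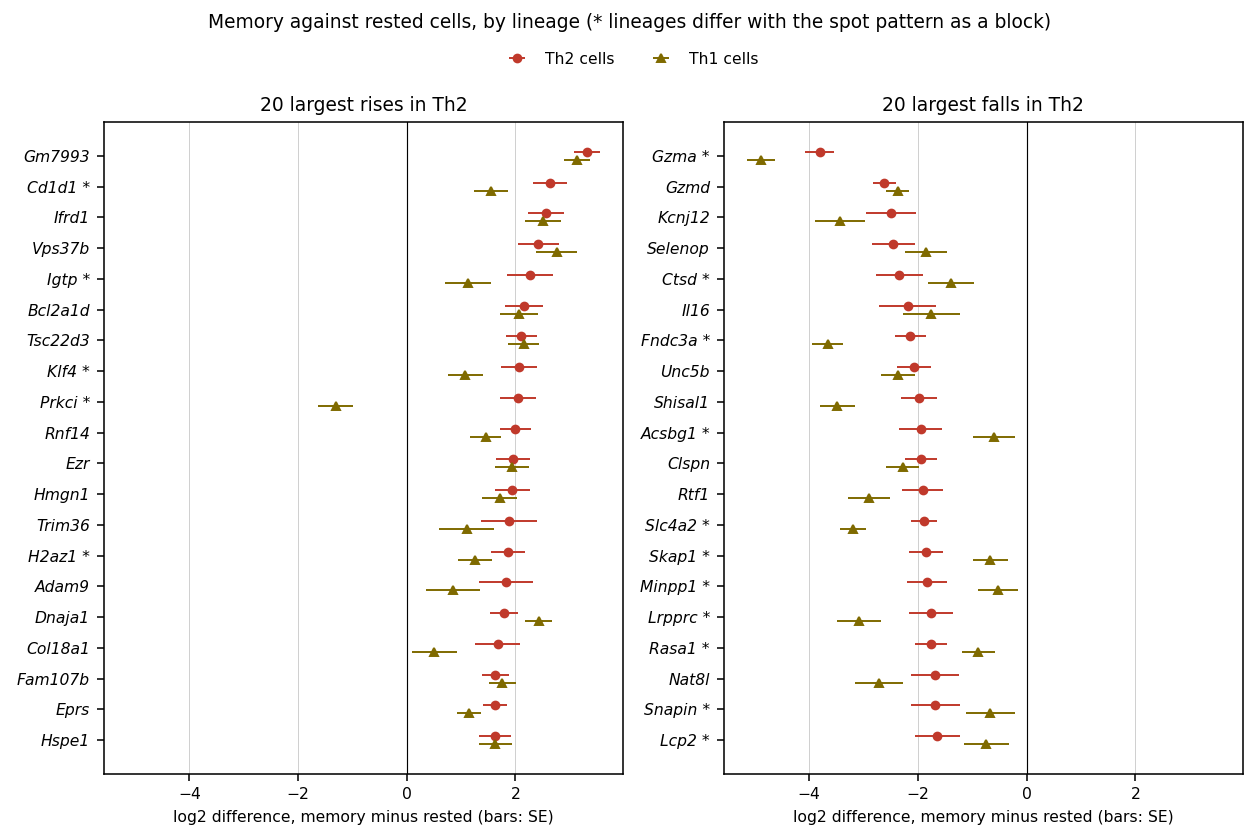
Difference between memory and rested cells (log2, bars ± SE) in Th2 cells (circles) and Th1 cells (triangles) for the 20 largest rises and 20 largest falls of Th2 cells, with a star at genes whose 2 differences differ when the spot pattern is a block. Prkci is the one gene of the 40 with differences on opposite sides of 0.

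Whether the step differed between the lineages was tested as the Th2 difference minus the Th1 difference. In the fit of all 7 groups 3 reporters passed (0.0601%; 343 at unadjusted p under 0.05). Of these 3, Prkci had the largest difference, 3.36 ± 0.46 (adjusted p = 0.0029), since it rose by 2.05 ± 0.33 in Th2 cells and fell by 1.31 ± 0.33 in Th1 cells (adjusted p = 0.0102). Its mean was 4.21 in memory and 2.16 in rested Th2 cells, and 0.79 in memory and 2.10 in rested Th1 cells. The rested means of the lineages lay close together and the memory means far apart. S100a9, a calcium-binding protein of granulocytes, passed with 2.64 ± 0.46 (adjusted p = 0.0255). Its Th2 difference of 0.87 ± 0.33 did not pass (adjusted p = 0.143), and in Th1 cells it fell by 1.76 ± 0.33 to a memory mean of 0.44, against 2.20 in rested cells. The other reporter that passed is unnamed here. Like S100a9, the myeloid marker Lyz2 was higher in memory Th2 (2.92) than in memory Th1 cells (0.93), with 6.17 in naive cells. For Lyz2 the difference between the steps was 1.50 ± 0.44 (adjusted p = 0.283, or 0.0248 with the spot pattern as a fixed block). For the granulocyte marker Mmp9 it was -0.03 ± 0.30. Whether other cells carried these signals was not tested.

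The spot patterns of the lineages cancel in this difference within each number. With the pattern as a fixed block, a fit added after the data were seen, 434 reporters passed (8.69%), 189 with the Th2 step higher and 245 with it lower. That fit took only the memory and rested samples of both lineages and gave each pattern its own term. It thus had far fewer residual degrees of freedom than the 14 of the fit of all 7 groups, and its standard errors are less certain. Its estimate of the spread thus also differs from that of the fit of all 7 groups, beyond the added block. Of the 40 genes above 16 passed, where 9.01% of all genes did, 5 of the rises and 11 of the falls. The 40 were chosen by a large Th2 difference, which is itself a term of this test. Part of that share, and of the larger changes in Th2 cells given next, therefore follows from the choice. Prkci (adjusted p = 0.0149), Cd1d1 (1.09 ± 0.23, adjusted p = 0.0445), Igtp (1.14 ± 0.24, adjusted p = 0.0434), Klf4 (0.98 ± 0.18, adjusted p = 0.0351) and H2az1 (0.60 ± 0.11, adjusted p = 0.0365) had larger positive differences in Th2 than in Th1 cells. Irf1, outside the 40, had a difference of 0.86 ± 0.13 (adjusted p = 0.0263), with 0.06 ± 0.23 in Th1 cells.

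Among the falls, 7 were deeper in Th2 cells in that fit and 4 were shallower. Skap1 differed by -1.18 ± 0.13 (adjusted p = 0.0149), having changed by -0.67 ± 0.32 in Th1 cells without passing. Lcp2 differed by -0.91 ± 0.12 (adjusted p = 0.0222), Rasa1 by -0.87 ± 0.14, Ctsd by -0.95 ± 0.18 (adjusted p = 0.0361), Acsbg1 by -1.35 ± 0.14, Minpp1 by -1.32 ± 0.26 and Snapin by -1.01 ± 0.17. Shallower falls in Th2 cells were those of Gzma (1.07 ± 0.22, adjusted p = 0.0427), Fndc3a (1.52 ± 0.24), Slc4a2 (1.32 ± 0.20) and Lrpprc (1.32 ± 0.15). The lineages were not shown to differ for Tsc22d3 (-0.04 ± 0.17), Ifrd1 (0.06 ± 0.30), Nfkbia (0.29 ± 0.15), Bcl2a1d (0.09 ± 0.15) or Hspe1 (-0.01 ± 0.15).

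Over all named genes, the largest positive differences in the fit with the pattern as a block were those of Xpo4, a nuclear export receptor (5.67 ± 0.61), the integrin gene Itgb2 (3.52 ± 0.32), Prkci, Blzf1 (3.22 ± 0.32), Arhgap6 (2.80 ± 0.16) and S100a9. In Th2 cells Itgb2 (-0.44 ± 0.59), Blzf1 (-1.17 ± 0.46) and Arhgap6 (-0.76 ± 0.53) did not rise. Their positive terms came from falls in Th1 cells of 3.96 ± 0.59, 4.38 ± 0.46 and 3.57 ± 0.53. For Xpo4 the Th2 difference was 1.64 ± 0.83 (adjusted p = 0.289), with 7.83, 5.69 and 7.42 in memory and 7.16, 5.11 and 3.77 in rested Th2 samples, which overlapped, while Th1 cells fell by 4.04 ± 0.83. The largest negative ones were those of Sipa1l1 (-1.93 ± 0.35), the thyrotropin-releasing hormone gene Trh (-1.84 ± 0.23), the calpain gene Capn2 (-1.82 ± 0.31), Eif3j1 (-1.69 ± 0.21), Tnk2 (-1.66 ± 0.29) and the helicase gene Dhx36 (-1.65 ± 0.19). Of these, Eif3j1 (0.62 ± 0.35) and Dhx36 (0.13 ± 0.36) were above 0 in Th2 cells, with larger rises in Th1 cells. None of the genes with the largest differences either way but Prkci passed in memory Th2 against rested Th2 cells.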

How the data were processed

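RNA of 21 mouse T cell samples (7 groups of 3) was measured on 42 filter arrays, 2 per sample, with 33P-labelled cDNA made from 5 to 15 µg of total RNA, per the labels' protocols. The deposited values are spot intensities on a linear scale, 9600 spots per array, as the authors' image reader gave them, and the sources used here do not give that reader, a background subtraction or a normalization. The deposited series matrix holds rescaled intensities (column medians 0.936 to 1.151), used as an alternative. Of 4992 reporters, 4608 had 2 spots and 384 had 1. A single gene was named for 3626 reporters (3605 matched to RefSeq by Entrez identifier), several for 172 and none for 1194, giving 3230 genes, each represented by its brightest reporter.

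The authors' deposited intensities were quantile-normalised over 42 arrays, 1 was added and log2 was taken, and spots and then arrays a and b were averaged. Within the 12 arrays the 99th percentile ran from 714.8 to 1621.2 and 26 to 378 spots were at 0. With no background column, precision is limited by the number of arrays and no detection limit can be given. A linear model over 7 groups (limma 3.58.1, R 4.3.3; lmFit and eBayes, 14 residual degrees of freedom) gave each contrast, adjusted by Benjamini-Hochberg over 4992 reporters and called at an adjusted p under 0.05. Every adjusted p is from that fit unless another is named. Taken as a random block, the spot pattern gave a correlation of 0.784 between samples that share it. The 21 samples are thus not independent, and 14 residual degrees of freedom overstate what they hold. The fit with the pattern as a fixed block took only the memory and rested samples of both lineages. The script was tested on simulated data. Tables and plots used Python 3.11.15, pandas 2.3.3, numpy 2.4.6 and matplotlib 3.10.9.

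Members, lists (26 of pathways, 8 of cell markers) and tests were chosen with earlier results of these data known. By rule the text names the 20 largest rises and 20 largest falls among called single-gene reporters whose groups do not overlap, the 6 largest interaction differences each way, and members of the lists. The interaction differences were ranked in the fit with the pattern as a fixed block, which was added after the data were seen. Same-numbered memory Th2 and rested Th2 samples deviated together from their group means (r = 0.337, 0.239 and 0.473), where unlike numbers gave -0.318 to 0.039. Deviations within a group of 3 are tied to each other, so these r are not independent. The labels do not say that equal numbers are pairs. The pairing was read from the same values that were tested, so the replicate block is no independent support. Equal numbers also share spot patterns between lineages, so the spread of that fit comes from samples that are not independent. The fit with the block is given where it changes a call or a count. Alternatives were median centring, the series matrix, a pseudocount of 16, brighter reporters only, single arrays, the replicate block, array weights, the spot pattern as a block, the 2 groups alone and leaving out each sample.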

Additional observations from a re-analysis of the deposited data

Results flagged for a closer look

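The step between rested and memory cells differed between the lineages at 3 reporters, by an interaction term in the limma fit of all 7 groups with Benjamini-Hochberg adjustment over 4992 reporters. For Prkci the Th2 difference minus the Th1 difference was 3.36 on the log2 scale (adjusted p = 0.0029), with all 3 memory Th2 samples above the rested Th2 samples and all 3 memory Th1 samples below the rested Th1 samples. For S100a9 it was 2.64 (adjusted p = 0.0255), with naive cells at 5.30, the highest of the 7 groups. A reporter that is unnamed here had 2.59 (adjusted p = 0.0255), with means of 5.10 in memory and 4.05 in rested Th2 cells and 4.35 in memory and 5.90 in rested Th1 cells.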

How the results depend on the processing

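In memory Th2 against rested Th2 cells the 195 calls became 127 with array b alone, 105 with median centring, 102 with the series matrix, 46 with the 2 groups alone, 52 with the 2 groups alone and the replicate block (added after the data were seen) and 719 with the replicate block over all groups. Leaving out 1 sample gave 94 to 305 calls: 305 without memory Th2 2, 108 without memory Th2 3, and 109, 99 and 94 without rested Th2 1, 2 and 3. Array a alone (170), array weights (272), brighter reporters only (200), a pseudocount of 16 (280) and the pattern as a random block (194) stayed within 1.5 times. The called reporters were not all the same. Of the 195 calls, these settings in turn kept 126, 187, 135 (with dim reporters not tested), 176 and 157. Rises made up 114 of the 195 calls, 173 of 272 with array weights, 171 of 280 with a pseudocount of 16, 57 of 105 with median centring and 360 of 719 with the replicate block, but were fewer than falls with brighter reporters only (97 against 103) and with the 2 groups alone and the block (25 against 27). The replicate block ended no call among the 62 genes followed. Of these, 10 were left out with brighter reporters only, and 25 of the 62 kept their call and 0 reversed in the alternatives that gave them a value. For the Th2 step minus the Th1 step the 3 calls became 0 with array b alone (limma; 343 of the main fit had an unadjusted p under 0.05), 6 with brighter reporters, 10 with median centring, 20 with a pseudocount of 16, 9 with the series matrix, 52 with the replicate block, 434 with the pattern as a fixed block, 823 with it as a random block, and 1 to 26 with 1 sample left out (26 without rested Th1 3, 14 without rested Th2 1, 8 without memory Th2 2, 7 without rested Th1 2 and 1 without memory Th1 1 or 3, memory Th2 3 or rested Th2 2 or 3). Of the 3 calls, 1 was kept with brighter reporters and 1 with a pseudocount of 16. Prkci (mean 2.92 over all samples) and S100a9 (2.37) lay under the median reporter of 3.13, so the brighter set left them out. The 434 calls came from a fit of the memory and rested samples alone. The causes of these shifts were not tested. With no background signal, falls to levels under the median reporter (10 of the 20 largest) are least certain in size.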
